A study of Saccharomyces cerevisiae with 4 samples.

Results

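The 10 heat shock protein and chaperone genes described here were picked by name from a table of 6260 open reading frames (ORFs) of the yeast Saccharomyces cerevisiae, and all 10 are listed in it. They are HSP12 (YFL014W), HSP26 (YBR072W), HSP42 (YDR171W), HSP104 (YLL026W), HSP78 (YDR258C), HSP82 (YPL240C), SSA1 (YAL005C), SSA2 (YLL024C), SSA3 (YBL075C) and SSA4 (YER103W). The rule names genes and uses no measured value, but it was written with earlier results of these data known. The strains were labelled knockouts of MET28, MET31, MET32 or CBF1, all regulators of sulfur amino acid genes. Each was compared on a 2-colour array with a wild type, labelled "wt+met" beside met28 and cbf1 and "wt" beside met31 and met32. Per the labels, colonies came from rich plates with the drug G418, and all cultures were shaken at 30 °C in the synthetic medium YNB and collected at an OD600, a measure of cell density, between 0.8 and 1.0. No heat shock is named in the labels.

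Heat shock proteins are mostly chaperones, which keep other proteins from aggregating, refold them or pull them out of aggregates. In yeast, the factor Hsf1 drives chaperone genes when unfolded protein accumulates, and Msn2 and Msn4 drive a broad stress programme that includes HSP12, HSP26, HSP42, HSP78 and HSP104. Small heat shock proteins bind unfolding proteins, Hsp70 and Hsp104 together dissolve aggregates, and Hsp90 completes the folding of kinases and other clients.

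Each strain has 1 column of values, so n = 1 for every value below, no difference has a replicate check, and no p-value is given. A value is the deposited log ratio, whose log base and direction are not stated. It was taken as the deletion strain over its wild type, so a positive value means higher in the deletion strain. The deleted gene was the basis for that direction. MET28 was at -1.294 on its own array, the lowest of 5242 measured ORFs, CBF1 at -0.995, ranked 4 from the bottom of 5383, and MET31 at -0.32, ranked 5 from the bottom of 5893. The array labelled met32 had MET32 at 0.012, at percentile 59.6 of 5882 ORFs. MET32 is therefore not low there with either sign. The direction of that array is not settled, and its values do not show the loss of MET32 that its label names. What lies behind this was not tested, and the values are given as deposited. An exact 0 was treated as not measured. The median and robust standard deviation (SD) of the measured values were 0.0015 and 0.0778 on met28, -0.002 and 0.0519 on met31, -0.002 and 0.0608 on met32, and -0.034 and 0.110 on cbf1.

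The median of the heat shock genes was highest on the cbf1 array, at 0.109. They were not shifted as a block there, since HSP26 was near the top and SSA4 near the bottom of all ORFs. HSP42, HSP78, HSP82 and SSA4 each had a higher value on another array. On the met28 array most lay slightly above 0, while HSP12 was at -0.156. On the met31 array 9 of the 10 lay slightly below 0. On the array labelled met32, HSP78, the mitochondrial member, was the only one of 7 measured members far from 0. A member was called high or low on an array when it was among the top 2.5% or the bottom 2.5% of the ORFs measured there. By that measure HSP26 on cbf1 and HSP78 on met32 were high, and no member was low on any of the 4 arrays, with values as deposited. With the sign of met32 turned, HSP78 would be low there.

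**Figure D1:**
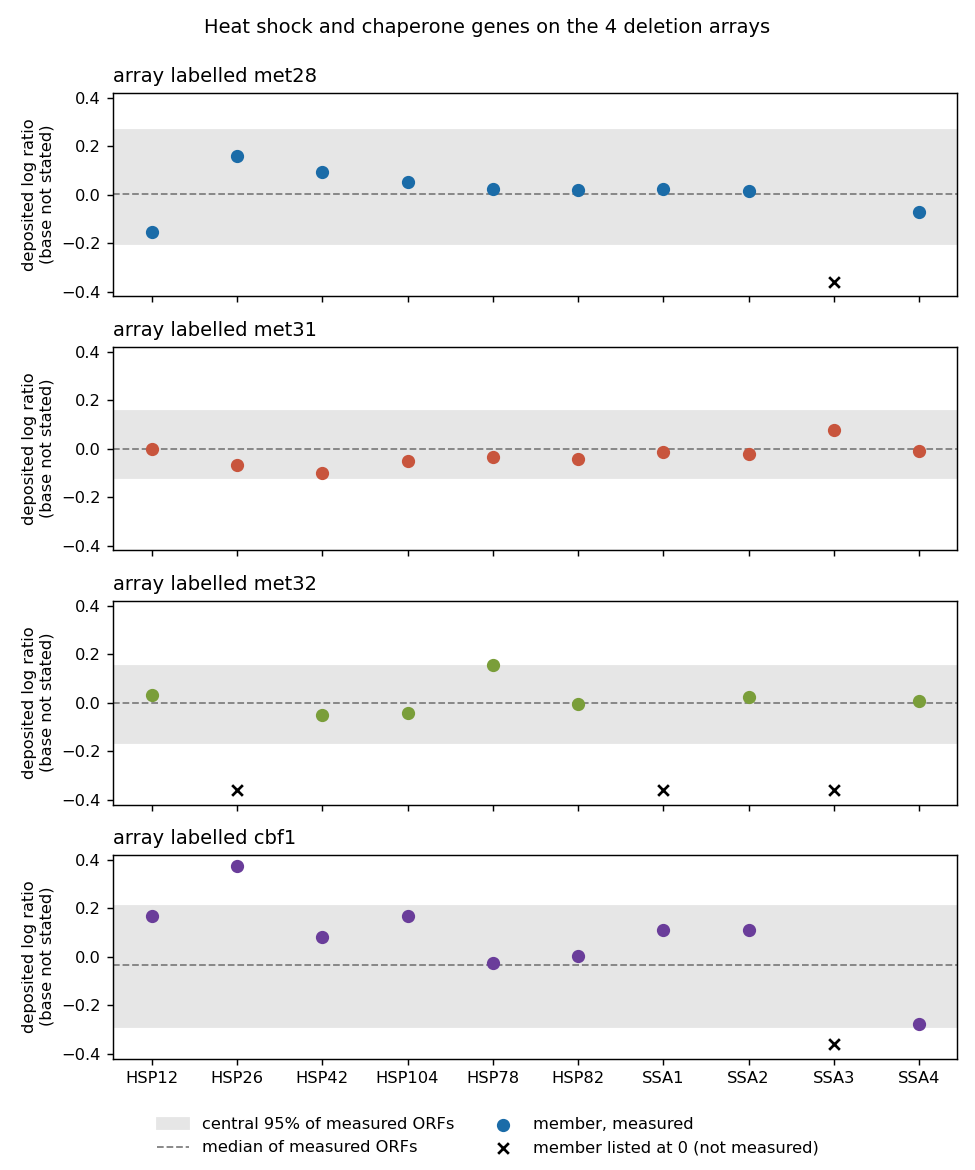
Deposited log ratio (vertical axis, log base not stated) of the 10 members (horizontal axis, small heat shock proteins first, Hsp70 genes last) on the array labelled for each deletion. Points are single values, grey bands the central 95% of measured ORFs, dashed lines their median, and crosses mark members listed at 0, drawn at an arbitrary height. HSP26 on cbf1 (0.376) and HSP78 on met32 (0.155) lie above the bands, and SSA4 on cbf1 (-0.279) lies just inside the lower edge.

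Among the small heat shock proteins, HSP26 encodes a large oligomer that heat activates to bind unfolding proteins. HSP26 was at 0.16 on met28, -0.066 on met31 and 0.376 on cbf1, and was listed at 0 on met32. The cbf1 value ranked 17 from the top of 5383 measured ORFs, 3.74 robust SDs above the median of the array. Read as a log10 ratio it is a level 2.38-fold that of the wild type, and read as a log2 ratio 1.30-fold. The met28 value was at percentile 93.1 and the met31 value at percentile 11.5, both outside the tails.

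HSP42 encodes the other small heat shock protein of the cytosol, which gathers misfolded proteins into deposits. HSP42 was at 0.092 on met28, -0.101 on met31, -0.052 on met32 and 0.081 on cbf1. As deposited, it was above 0 on the arrays with the "wt+met" label and below 0 on those with the "wt" label. HSP104 and HSP82 had the same split, though HSP82 was at only -0.005 on met32 and 0.001 on cbf1. HSP26 and SSA1 had it too, but met31 was their only measured array with the "wt" label. The share of all ORFs with this split was not counted. With the sign of met32 turned, HSP42 would be at 0.052 there, HSP104 at 0.043 and HSP82 at 0.005. The split of HSP42, HSP104 and HSP82 would then be gone. The met31 value of HSP42 was the lowest of the 10 members there, at percentile 4.46, and its met28 and cbf1 values were at percentiles 85.2 and 85.0.

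HSP12 encodes a small, mostly unfolded protein that associates with membranes and is among the most stress-responsive genes of yeast. HSP12 was at -0.156 on met28, -0.003 on met31, 0.031 on met32 and 0.166 on cbf1. These values ran from percentile 4.46 on met28 to percentile 95.3 on cbf1. HSP12 had the widest span of the 7 members measured on all 4 arrays, 0.322 from its lowest to its highest value, which exceeded the span of 90.3% of the 4661 ORFs measured on all 4. The median span of those ORFs was 0.154. With the sign of met32 turned, the span of HSP12 was the same and exceeded that of 89.4% of the ORFs.

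HSP104 encodes the cytosolic disaggregase, a ring-shaped ATPase that threads proteins out of aggregates. HSP104 was at 0.05 on met28, -0.052 on met31, -0.043 on met32 and 0.168 on cbf1. The cbf1 value ranked 245 from the top, at percentile 95.4, and the other 3 were between percentiles 16.5 and 73.1. HSP78 encodes the related disaggregase of the mitochondrial matrix. HSP78 was at 0.022 on met28, -0.033 on met31, 0.155 on met32 and -0.028 on cbf1. The cytosolic and the mitochondrial disaggregase genes thus had their highest values on different arrays. The met32 value of HSP78 ranked 127 from the top of 5882, barely past the limit of 0.15.

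HSP82 encodes the stress-inducible form of Hsp90. HSP82 was at 0.018 on met28, -0.041 on met31, -0.005 on met32 and 0.001 on cbf1. It varied least of the members measured on all 4 arrays, with a span of 0.059 that exceeded the span of 7.19% of the ORFs, or 5.69% with the sign of met32 turned. HSC82, the near-identical gene for the constitutive form, was at 0.043, -0.023, -0.001 and -0.02 on the same arrays. The probe sequences were not used here, so the array cannot be assumed to tell these 2 genes apart.

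The SSA genes encode the cytosolic Hsp70 chaperones: SSA1 and SSA2 are made in growing cells, and SSA3 and SSA4 are induced by stress. SSA1 was at 0.023 on met28, -0.012 on met31 and 0.111 on cbf1, and was listed at 0 on met32. SSA2 was at 0.014 on met28, -0.021 on met31, 0.023 on met32 and 0.109 on cbf1. The 2 genes lay within 0.009 of each other on each of the 3 arrays that measured both. Their sequences are near-identical and their signals may be mixed. On cbf1 they ranked 542 and 556 from the top, at percentiles 89.9 and 89.6.

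SSA4, the strongly heat-induced Hsp70 gene, was at -0.073 on met28, -0.009 on met31, 0.006 on met32 and -0.279 on cbf1. On the cbf1 array SSA4 therefore stood at the opposite end from HSP26, HSP104 and its own relatives SSA1 and SSA2. The value ranked 151 from the bottom of 5383, at percentile 2.81, just outside the limit of -0.291 for the lowest 2.5%. Read as a log10 ratio it is a level 1.90-fold below the wild type, and read as a log2 ratio 1.21-fold below. SSA3 was at 0.076 on met31, at percentile 89.3 and the only member above 0 there. It was listed at 0 on the other 3 arrays, so nothing can be said of this gene on the arrays labelled met28, met32 and cbf1.

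Set against all ORFs, the cbf1 array gave the clearest shift. Of 9 measured members, 1 was in the highest 2.5% (HSP26) and 0 were in the lowest, where 2.51% and 2.51% of all measured ORFs lie. With tails of 5%, 3 of 9 were high (HSP26, HSP104 and HSP12) beside 5.09% of all ORFs, and 1 was low (SSA4) beside 5.03%. Above 0 were 7 of 9 members, beside 37.1% of all measured ORFs on this array. The member median was 0.109, beside -0.034 for all ORFs. The members also spread most here, over 0.655 from SSA4 to HSP26, beside spans of 0.177 to 0.316 on the other arrays. All ORFs spread most here too, with a robust SD of 0.110 beside 0.0519 to 0.0778 on the other arrays.

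On the met28 array, 0 of 9 measured members were in the highest and 0 in the lowest 2.5%, beside 2.52% and 2.54% of all ORFs. Above 0 were 7 of 9, beside 50.7%, and the member median was 0.022, beside 0.0015. With a tail of 5%, HSP12 was the only low member, beside 5.11% of all ORFs. HSP26 was the highest member here as on cbf1. The 2 arrays carry the same wild-type label, so they may share wild-type RNA, and the likeness of their values was not tested.

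On the met31 array, 0 of 10 members were in the highest and 0 in the lowest 2.5%, beside 2.51% and 2.55% of all ORFs. Above 0 was 1 of 10, beside 48.3%, and the member median was -0.027, beside -0.002. The member median was -0.48 robust SDs from the median of the array, a smaller distance than the 1.30 on cbf1 and a larger one than the 0.26 on met28. With a tail of 5%, HSP42 was the only low member, beside 5.07% of all ORFs.

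On the array labelled met32, 1 of 7 measured members was in the highest 2.5% (HSP78) and 0 were in the lowest, beside 2.58% and 2.52% of all ORFs. Above 0 were 4 of 7, beside 48.8%, and the member median was 0.006, beside -0.002. With the sign turned, HSP78 would be the only low member and the median -0.006.

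The 3 members not measured on met32 lie in a block of the table. HSP26 and SSA3 are on chromosome II and SSA1 is on chromosome I, where 50.5% and 96.2% of the ORFs were listed at 0 on that array. From the first row to YBR122C, 300 of 345 ORFs were at 0 on met32, against 78 of the 5915 ORFs after it. On the other 3 arrays 4.06% to 12.8% of those 345 ORFs were at 0. HSP26 sat inside a run of 79 consecutive ORFs at 0, SSA1 inside a run of 46 and SSA3 inside a run of 78. The zeros of these members on met32 are therefore shared with their table neighbours, and what caused the block was not tested. SSA3 was also at 0 on met28 and cbf1, in a run of 2 ORFs and alone.

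**Figure D2:**
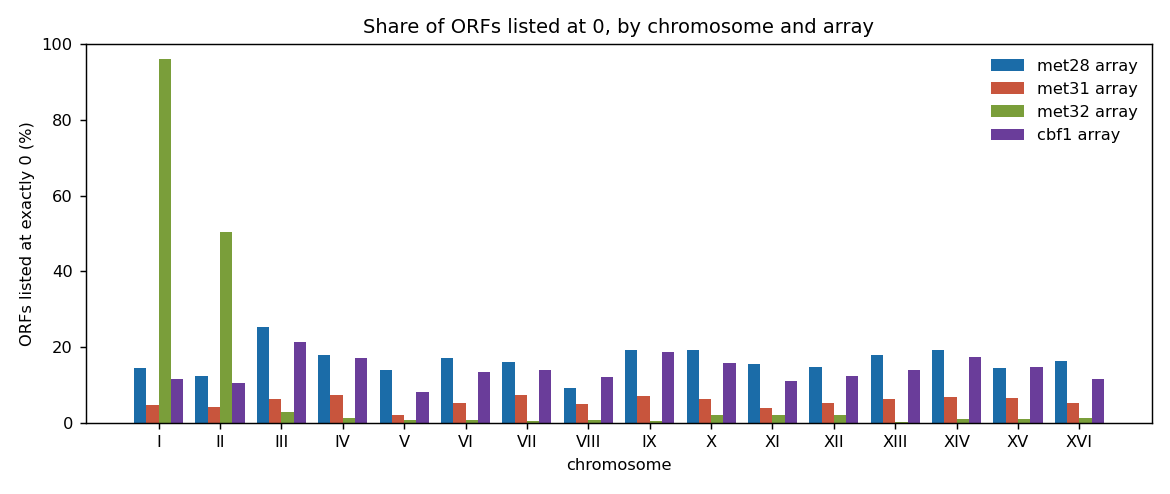
Percentage of ORFs listed at exactly 0 (vertical axis) on each chromosome (horizontal axis), with a bar for each array. The met32 bars reach 96.2% on chromosome I and 50.5% on chromosome II, which carry SSA1, SSA3 and HSP26, and are below 3% elsewhere.

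Measured genes beside the outlying members had values nearer 0 or of the opposite sign. Most neighbours of any genes picked for values far from 0 would do so, and the share for other ORFs was not counted. On cbf1, where HSP26 was at 0.376, the flanking ORFs YBR071W and RDH54 were at 0.056 and 0.033. Beside HSP104 (0.168), ISA1 was at -0.195 and PAU17 at 0.007. PAU17 separates HSP104 from SSA2, and POM33, on the far side of SSA2, was at -0.251. Beside SSA4 (-0.279), RPS8B was at -0.136 and RTT105 was listed at 0. On met32, RKM4 and YAP6 beside HSP78 (0.155) were at 0.062 and -0.104.

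The members were next set beside 101 other chaperone, stress and regulator genes in 9 lists. On cbf1 the members' median of 0.109 was above the median of each of the 9 lists, which ran from -0.108 to 0.046. The lists held 1 high and 0 low genes among 96 measured on cbf1, 1 high and 1 low among 96 on met28, 1 high and 5 low among 99 on met31, and 3 high and 1 low among 97 on met32. The share of low genes on met31 was 5.05%, beside 2.55% of all ORFs, and the share of high genes on met32 was 3.09%, beside 2.58%. The other shares were below those of all ORFs. On cbf1 they were 1.04% high and 0% low, beside 2.51% and 2.51%. On met28 they were 1.04% high and 1.04% low, beside 2.52% and 2.54%. High genes on met31 were 1.01%, beside 2.51%, and low genes on met32 1.03%, beside 2.52%.

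The general stress list, 21 genes of the Msn2 and Msn4 programme that are not chaperones, came nearest to the members on cbf1. Its median was 0.046, and 12 of 20 measured genes were above 0, beside 37.1% of all ORFs. PGM2, a phosphoglucomutase gene of glycogen metabolism, was its only high gene at 0.243, beside 2.51% of all ORFs. DDR48, a stress protein gene, was at 0.192 and HXK1, a hexokinase gene, at 0.157. On met28 the median was 0.049, with 16 of 20 above 0, beside 50.7%. DDR48 was the only high gene there, at 0.316, beside 2.52% of all ORFs. On met31 the median was -0.0295, with 16 of 20 below 0 and 4 above, beside 48.3% of all ORFs above 0. Low there were 3 of 20, beside 2.55% of all ORFs. They were TSL1 (-0.16), ALD3 (-0.158) and CTT1 (-0.128), genes of trehalose synthesis, aldehyde oxidation and peroxide removal. On met32 the median was -0.02, with 6 of 21 above 0, beside 48.8%. RTN2 was the only low gene there, at -0.175, beside 2.52% of all ORFs. The sign of the list's median matched that of the members on met28, met31 and cbf1 and not on met32. The match was not particular to this list. The partners of Hsp90 had medians of 0.023 on met28, -0.015 on met31, 0.021 on met32 and 0.0025 on cbf1. Those signs matched the members on all 4 arrays as deposited.

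The other chaperone lists had medians nearer to that of all ORFs on cbf1, or below it. Folding genes of the endoplasmic reticulum had a median of -0.108, beside -0.034 for all measured ORFs. Above 0 was 1 of 10, beside 37.1% of all ORFs. SCJ1 and EUG1, for a J protein and a disulfide isomerase of that compartment, were at -0.243 and -0.237, and PDI1, the main disulfide isomerase gene, was at 0.107. None of these 10 was in a tail. The other cytosolic Hsp70 and Hsp110 genes had a median of -0.071, with the ribosome-bound SSB1 and SSB2 at -0.105 and -0.071 and the Hsp110 gene SSE2 at 0.092. J proteins and exchange factors had a median of -0.033, subunits of the CCT chaperonin and prefoldin -0.028, mitochondrial chaperones -0.018 and the partners of Hsp90 0.0025. Other HSP-named genes had a median of -0.02. These 5 medians lay at or slightly above that of all ORFs.

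**Figure D3:**
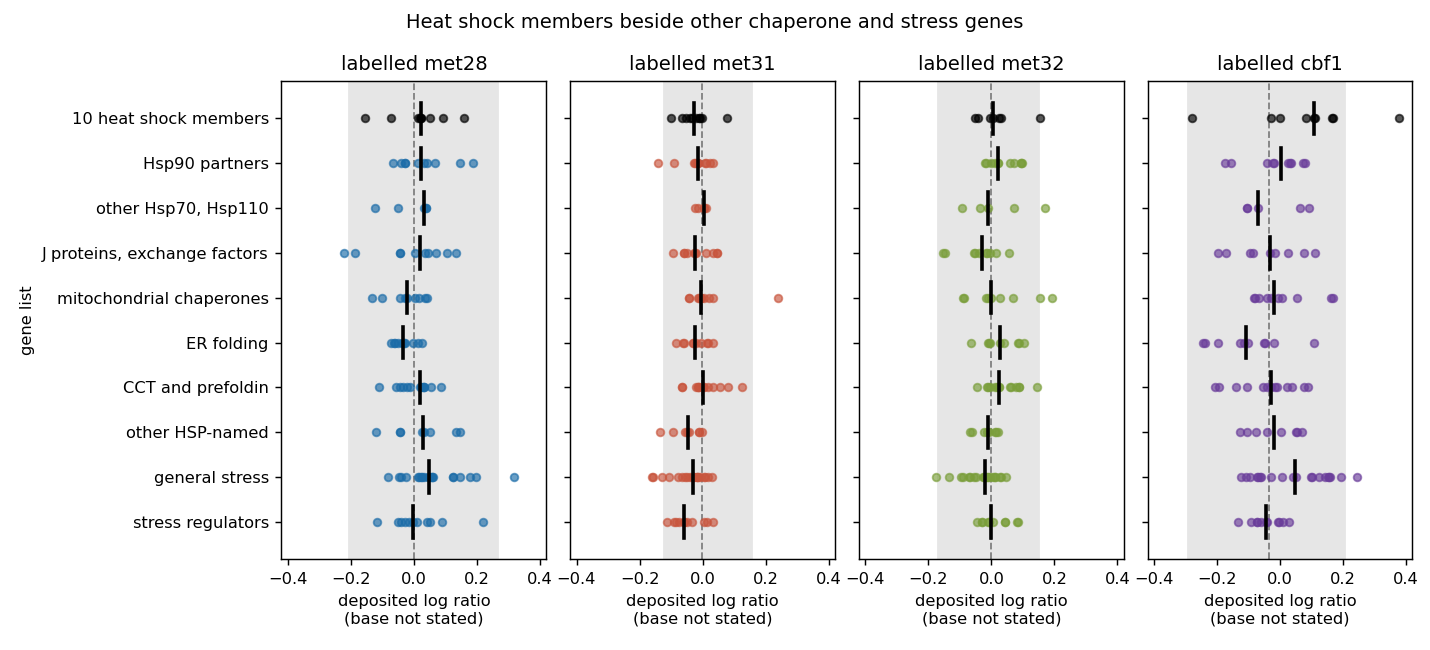
Deposited log ratio (horizontal axis, log base not stated) of the 10 members (top row) and of 9 lists of other chaperone and stress genes (rows below) on the array labelled for each deletion. Points are measured genes, black bars list medians, grey bands the central 95% of measured ORFs and dashed lines their median. On cbf1 the members' median (0.109) lies to the right of all list medians.

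On met32, HSP78 was not the only mitochondrial chaperone gene in the highest 2.5%. ZIM17, whose product keeps mitochondrial Hsp70 soluble, was at 0.191 and MCX1, a matrix relative of bacterial ClpX, at 0.155. ZIM17 and MCX1 were 2 of 9 measured genes of the mitochondrial chaperone list, beside 2.58% of all ORFs. The rest of that list was outside the tails, from ECM10 at 0.07 to MDJ1 at -0.089. HSP60 was at 0.028, MGE1 at -0.011, HSP10 at -0.018 and SSQ1 at -0.086. SSC1, the main mitochondrial Hsp70 gene, was at -0.002, and MDJ1 encodes a J protein of that Hsp70. The list's median was -0.002. SSE1, the major cytosolic Hsp110 gene, was high at 0.169. With the sign turned HSP78, ZIM17, MCX1 and SSE1 would be low.

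Single genes of the remaining lists were outside the central 95% on met28 and met31. SWA2, a J protein gene of clathrin uncoating, was low on met28 at -0.222. On met31, PIH1, an Hsp90 partner gene, was low at -0.143 and HSP30, a plasma membrane protein gene, low at -0.135, while TCM62, a mitochondrial chaperonin-related gene, was high at 0.238. All 8 other HSP-named genes were below 0 on met31, where 48.3% of all ORFs were above 0. Their median was -0.0455, beside -0.002 for all ORFs.

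The regulators of the heat shock and stress programmes were outside the tails on all 4 arrays wherever they were measured. HSF1 was at 0.04 on met28, 0.005 on met31, 0.084 on met32 and -0.042 on cbf1. MSN2 was at -0.116, -0.114, -0.03 and -0.133 on the same arrays, and MSN4 at -0.05, -0.058, 0.044 and -0.074. All 3 of these genes had values below 0 on cbf1, where the members' median was high and the array's own median was -0.034. Whether the mRNA of these regulators bears on the members was not tested.

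Arrays with the same wild-type label were then compared gene by gene. For met28 minus cbf1, 0 of 9 members were in the highest and 1 was in the lowest 2.5% of the differences over 5032 ORFs, beside 2.52% and 2.54%. That member was HSP12, at -0.156 on met28 and 0.166 on cbf1, a difference of -0.322 at percentile 0.954. HSP26 differed by -0.216, at percentile 4.07, and HSP104 by -0.118, at percentile 11.5. SSA4 differed the other way, by 0.206, at percentile 88.5. HSP42, HSP78 and HSP82 differed by 0.011 to 0.05, close to the median difference of 0.038. SSA1 and SSA2 differed by -0.088 and -0.095.

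For met31 minus met32, 0 of 7 members were in the highest and 1 was in the lowest 2.5% of the differences over 5528 ORFs, beside 2.51% and 2.57%. That member was HSP78, at -0.033 on met31 and 0.155 on met32, a difference of -0.188 at percentile 1.90. The other 6 differed by -0.049 (HSP42) to -0.009 (HSP104). All 7 differences were below 0, beside a median of 0.002 over all ORFs. These results rest on the direction of the met32 array as deposited. With its sign turned, HSP78 differed by 0.122, at percentile 88.4, no member was in a tail, and 4 of 7 differences were below 0, beside a median of -0.003.

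**Figure D4:**
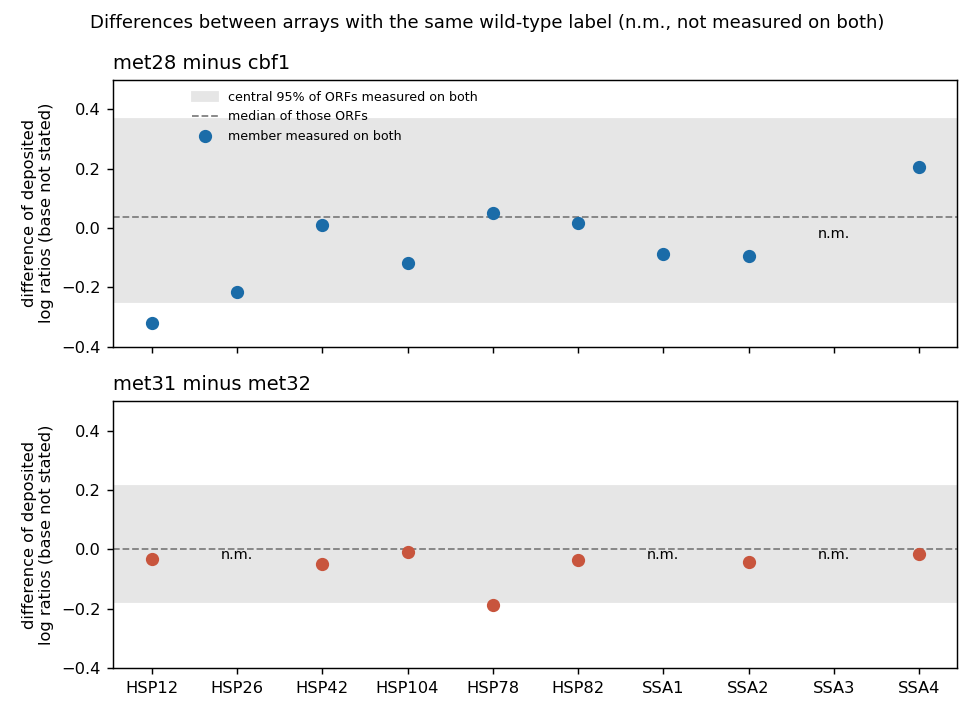
Difference of deposited log ratios (vertical axis, log base not stated) for each member (horizontal axis), met28 minus cbf1 above and met31 minus met32 below. Points are members, grey bands the central 95% of ORFs measured on both arrays, dashed lines their median. HSP12 (-0.322) and, with met32 as deposited, HSP78 (-0.188) lie below the bands.

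Genes with the values most like those of HSP12 were ranked by the distance between values, each in robust SDs of its array, over the 4 arrays and 4661 ORFs. The 5 nearest named genes were SHH4, RPL41B, ATP17, TDP1 and PEP7, at distances of 0.760 to 0.855 beside a median of 3.35. Each was below 0 on met28 (-0.174 to -0.109) and above 0 on cbf1 (0.083 to 0.206), which follows from their choice by closeness to HSP12. None belongs to the 10 members or the 101 genes of the 9 lists. Those are few of the 6260 ORFs, so this says little about HSP12. For HSP26, measured on 3 arrays, the nearest named genes among 4974 ORFs were ATG41, MRP8, MSP1, LAC1 and APN2, at 0.727 to 1.49 beside a median of 4.72. ATG41, an autophagy gene, was at 0.174 on met28, -0.063 on met31 and 0.299 on cbf1. With 3 or 4 values a gene, some of them against possibly shared wild-type RNA, such likeness is a description of these arrays.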

How the data were processed

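The authors deposited 1 signed score per ORF and strain, with at most 3 decimals, which was taken as a log ratio of 2 channels. The sources used here do not state its log base, centring, background correction, dye orientation or averaging. Per the labels' protocols, RNA was extracted with hot phenol, Cy3 or Cy5 was incorporated directly, and several cultures were grown for each strain. Channel intensities were not used here, so depth is unknown and the number of arrays limits the precision.

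Values were used as deposited, without an exact 0. Tails were the highest and lowest 2.5% of measured values, robust SD was 1.4826 times the median absolute deviation, and percentiles count the ORFs with lower values, plus, for single arrays, those tied counted at a weight of 0.5. Names and gene order came from a RefSeq table of assembly R64. Members and lists were chosen with earlier results of these data known. Named genes were the members, the deleted genes, up to 4 genes with the largest absolute values for each list and array, and the 5 nearest genes. Other genes named (neighbours, HSC82, HSF1, MSN2, MSN4, and further list genes) were chosen after their values were seen. Promoter motifs and protein identity were planned and not analysed here. Python 3.11.15, pandas 2.3.3 and numpy 2.4.6 were used.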

Additional observations from a re-analysis of the deposited data

Results flagged for a closer look

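HSP12 and HSP78 were each on opposite sides of 0 on 2 arrays that carry the same wild-type label, with a difference outside the central 95% of all ORFs, using values as deposited. HSP12 differed by -0.322 for met28 minus cbf1, and HSP78 by -0.188 for met31 minus met32. With the sign of met32 turned, HSP78 would be at -0.155 there, on the same side of 0 as its -0.033 on met31, and would differ by 0.122, inside the central 95%. With 1 array a strain, neither difference was tested.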

How the results depend on the processing

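No paired analysis was possible because each strain has 1 column. The counts of members in either tail depended on the tail size. With tails of 5% they were 1 on met28, 1 on met31 and 4 on cbf1, and with tails of 10% they were 2, 1 and 4, against 0, 0 and 1 with tails of 2.5%. With tails of 1% the count on met32 was 0, against 1. On cbf1 the count was 2 with exact zeros kept as values, which adds SSA4, and 0 over ORFs measured on all 4 arrays, which drops HSP26. With the sign of met32 turned its member median was -0.006, against 0.006. The difference of HSP78 for met31 minus met32 was then 0.122, against -0.188, and 0 members were in the tails of that difference, against 1. The other 55 of 56 medians under alternatives moved by less than 1 robust SD of their array, and none took the opposite sign. That limit is wide, since on each array 1 robust SD exceeded the distance of the member median from 0. On met32 the median was 0 with exact zeros kept as values. Centring and scaling the arrays changed no tail call among the 16 single differences. Leaving out each member in turn gave medians of 0.02 to 0.0225 on met28, -0.033 to -0.021 on met31, 0.0005 to 0.0145 on met32 and 0.095 to 0.11 on cbf1. The comparison of HSP26 over 3 arrays, and the differences and spans with the sign of met32 turned, were chosen after seeing the data, and the alternative window for promoter motifs was not run. Without replicates or channel intensities, small values near 0, as for most members on met31, cannot be told from array error.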
